A study of Mus musculus with 14 samples.

Results

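Gene deserts, the long stretches of the mouse genome that lie outside protein-coding genes and far from their start sites, held 23348 of the 240778 accessible windows (9.70%) that were counted in regulatory T cells. A window of 201 bp was placed in a gene desert when its centre lay outside every protein-coding gene body and more than 100 kb from every protein-coding start site on GRCm38, a rule that uses positions and no read counts. Chromatin accessibility was measured by ATAC-seq, in which a transposase cuts and tags open DNA, in 14 mice that all carried Foxp3AID, the transcription factor Foxp3 fused to an auxin-inducible degron, together with ZsGreen and Cre. Mice labelled Foxp3-AID ROSA26-TIR1(F74G) also carried the plant receptor that delivers degron-tagged protein for degradation, driven by a CAG promoter behind a loxP-flanked stop and marked with mCherry, and mice labelled Foxp3-AID ROSA26-WT did not. Both genotypes received the auxin analogue 5-ph-IAA, so that only the R26TIR1(F74G) mice could degrade Foxp3, for 3 days (4 R26WT and 4 R26TIR1(F74G) mice) or 7 days (3 of each). Spleens and lymph nodes gave the Treg cells, which were sorted by ZsGreen, and those of R26TIR1(F74G) mice by mCherry as well, so genotype and gate cannot be told apart. The Foxp3AID allele was made in embryonic stem cells of mixed 129 and B6 background and then backcrossed, and the labels give no age, sex or zygosity of the mice. The study describes its day 7 accessibility mice as Foxp3AID/WT, which are heterozygous females because Foxp3 is X-linked, and such mice also hold Treg cells with untagged Foxp3 outside the ZsGreen gate. Nothing in the labels says how the mice within a group were related, so p-values measure only the spread between these mice.

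Many accessible sites far from genes in a differentiated cell are distal enhancers, which can act on a promoter over long distances through looping of the chromatin. Gene deserts often flank genes for developmental regulators, and several deserts beside genes for lymphocyte transcription factors are known to hold their enhancers. Foxp3 is the lineage-defining transcription factor of Treg cells and binds mostly at sites that are already open in their CD4+ T cell precursors, alongside ETS, RUNX, AP-1 and TCF1 family factors.

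Libraries held 5653289 to 20184487 counts over the windows. The 2 shallowest, day 3 R26TIR1(F74G) replicate 1 and day 7 R26WT replicate 3 (6348754 counts), had 299 and 116 desert windows at 0, against at most 6 in any other library. Start-site windows of T and Treg cell genes (6 of 8 listed genes had a window, Foxp3 and Tnfrsf18 did not) had mean levels of 4.55 to 20.9 CPM (counts per 1000000, with library sizes scaled by TMM), and their summed level by group was between 77.6 and 87.7 CPM. Windows at starts of genes of other cell types were found for 2 of 6 B cell genes, with 1.34 CPM at Cd79b and 3.50 CPM at Ebf1, for 4 of 6 myeloid genes (1.12 to 4.48 CPM), for both CD8 T cell genes (Cd8a 1.33 and Cd8b1 12.5 CPM) and for 1 of 2 erythroid genes (Klf1, 1.90 CPM). In any of these lists, Foxp3 and Tnfrsf18 included, a start without a counted window has no level here and is not shown to be closed. Summed over the B cell list, the group means were 4.45 CPM in day 3 R26WT, 4.79 in day 3 R26TIR1(F74G), 5.95 in day 7 R26WT and 4.28 in day 7 R26TIR1(F74G), and the part of such cells in the results was not tested. Degradation acts on the protein, so the accessibility counts do not show which mice had lost Foxp3.

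Some desert windows lay at the starts of non-protein-coding genes, and 4 of these start regions are shown to give the sequence at accessible desert sites. They were chosen after their levels were seen, and each reaches beyond its window. 4932412D23Rik lies under the most accessible desert window, Dubr under the most accessible one in a desert beside a gene of a T cell list, and 1700064M15Rik and Gm41331 are accessible starts (27.6 and 21.2 CPM) with matches to the motifs searched. The sequences are RefSeq promoters on GRCm38.p6, from 250 bases before to 50 bases after the start, read 5′ to 3′ on the strand of the gene, at chr16:42875538-42875837 (minus strand), chr16:50732724-50733023 (minus), chr12:99627925-99628224 (minus) and chr15:60141576-60141875 (plus). Capitals mark matches to CAGGAAG (ETS), TGTGGTT (RUNX), TGACTCA (AP-1) or CTTTGAA (TCF1) on either strand.
4932412D23Rik: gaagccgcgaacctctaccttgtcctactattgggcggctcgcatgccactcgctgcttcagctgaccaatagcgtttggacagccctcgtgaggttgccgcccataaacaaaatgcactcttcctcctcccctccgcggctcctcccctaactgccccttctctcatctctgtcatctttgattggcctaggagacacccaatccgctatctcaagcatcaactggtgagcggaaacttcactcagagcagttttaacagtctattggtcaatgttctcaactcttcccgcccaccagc
Dubr: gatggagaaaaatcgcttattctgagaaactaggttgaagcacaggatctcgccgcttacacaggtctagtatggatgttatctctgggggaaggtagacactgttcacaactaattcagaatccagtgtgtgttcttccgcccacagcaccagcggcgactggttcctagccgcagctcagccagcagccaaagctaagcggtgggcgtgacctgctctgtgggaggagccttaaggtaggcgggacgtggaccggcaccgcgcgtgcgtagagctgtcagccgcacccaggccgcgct
1700064M15Rik: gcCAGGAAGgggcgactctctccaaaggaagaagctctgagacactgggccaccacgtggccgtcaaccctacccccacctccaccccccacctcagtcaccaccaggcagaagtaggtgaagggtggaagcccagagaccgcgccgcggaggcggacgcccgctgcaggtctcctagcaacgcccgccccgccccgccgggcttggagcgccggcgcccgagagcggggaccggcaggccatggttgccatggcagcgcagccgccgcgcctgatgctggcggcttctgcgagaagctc
Gm41331: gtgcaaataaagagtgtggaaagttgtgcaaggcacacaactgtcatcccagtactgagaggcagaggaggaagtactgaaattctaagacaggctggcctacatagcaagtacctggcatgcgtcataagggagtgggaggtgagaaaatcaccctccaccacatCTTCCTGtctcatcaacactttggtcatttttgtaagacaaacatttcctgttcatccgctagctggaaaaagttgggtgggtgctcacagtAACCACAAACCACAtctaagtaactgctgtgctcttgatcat

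The first pair held none of the 4 motifs and had a GC content of 54.0% and 57.3%. The ETS motif stood at the far end of the 1700064M15Rik sequence (GC 70.7%), and Gm41331 (GC 46.0%) held 1 ETS match upstream of the start and 2 RUNX matches just downstream of it. In all, 240 desert windows lay within 250 bp of the start of a non-protein-coding gene and had a median level of 1.97 CPM, against 1.19 CPM for the other 23108. Non-protein-coding RefSeq promoters of 300 bases with a start this near to a desert window numbered 148, from 133 genes, and some overlap each other. All of them lie at an accessible window, which the promoters given for comparison need not, and the part of accessibility in the motif shares was not tested. The ETS motif was in 38 of them (25.7%), against 13.3% of all 32851 RefSeq promoters and 14.8% of the 11588 non-protein-coding ones. RUNX matches were in 21 (14.2%, against 5.27% of all promoters and 6.29% of non-protein-coding ones), AP-1 matches in 17 (11.5%, against 5.20% and 6.20%) and TCF1 matches in 12 (8.11%, against 5.14% and 6.23%), and 79 of the 148 held none of the 4 motifs. Their median GC content was 49.3%, near the 48.3% of all non-protein-coding promoters and below the 56.3% of protein-coding ones. A match describes the letters of the promoter, which can lie outside the accessible window, and is no measure of binding.

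Desert windows were sparse and mostly weak. Gene deserts covered 807 Mb, or 31.4% of the 2571 Mb searched, and held 17.04 accessible regions per Mb after overlapping windows were joined, against 82.0 elsewhere. Their median level was 1.20 CPM, against 1.60 CPM for intergenic windows nearer to a start, 1.57 CPM for windows in gene bodies and 4.40 CPM for windows within 1 kb of a start. A minority reached the level of strong sites, with 397 desert windows among the 20000 most accessible, beside 2323 of 63770 other intergenic windows and 14307 of 53925 promoter windows. The table held no desert window with a mean count under 10.1, so sites weaker than this were not analysed here, and 2681 desert windows (11.5%) had a mean count of at least 50. Between the 4 day 3 R26WT mice the median coefficient of variation was 32.6% for desert windows with a mean count of 10 to 20 and 12.5% for those with 100 or more, against 30.2% and 11.9% for other intergenic windows of the same counts.

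**Figure D1:**
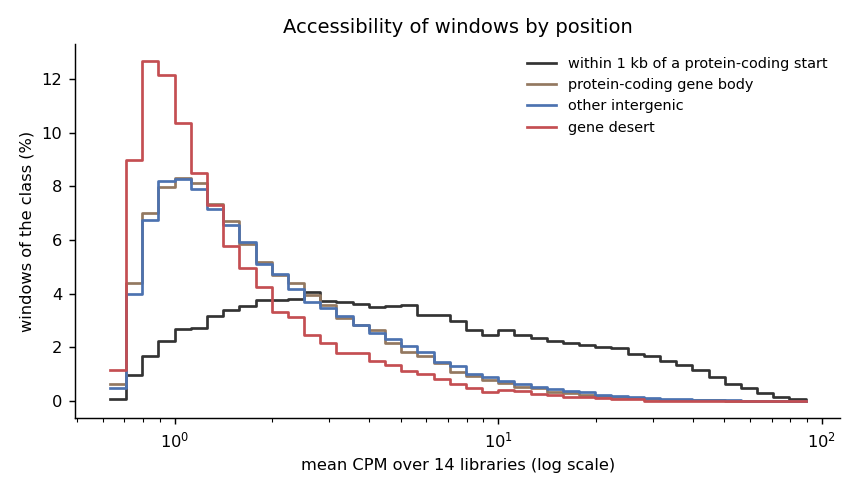
Distribution of mean CPM over the 14 libraries (log axis) for windows of the 4 position classes, as the percent of each class. The desert curve peaks just below 1 CPM, left of its median of 1.20 CPM, and runs out to 78.9 CPM, while windows within 1 kb of a start spread to the right with a median of 4.40 CPM.

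Levels were lower farther from genes. The 10531 desert windows that were 100 to 200 kb from the nearest protein-coding start had a median of 1.37 CPM, the 8088 at 200 to 500 kb 1.20 CPM, and the 4729 beyond 500 kb 0.934 CPM. Levels above 10 CPM were found in 2.54%, 2.10% and 0.254% of these classes. At the edge of the rule there was no step, with a median of 1.42 CPM in 2068 intergenic windows 90 to 100 kb from a start and 1.41 CPM in 1665 desert windows at 100 to 110 kb. The most remote windows lay between the protocadherin genes Pcdh20 and Pcdh9 on chromosome 14, up to 2701873 bp from a start (chr14:91188696-91188897), where the level was 0.778 CPM and individual mice ranged from 0.323 to 1.86 CPM. The next most remote, at 2645488 and 2645020 bp (chr14:91245081-91245282 and chr14:91245549-91245750), had 0.790 and 0.912 CPM.

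Most desert windows, 17601 (75.4%), were inside no annotated gene, with a median of 1.14 CPM. Another 4661 (19.96%) were inside a lncRNA gene, with 1.42 CPM. Antigen receptor loci, whose variable segments are not annotated as protein-coding genes here and so fall under the rule, held 852 windows (3.65%) with a median of 1.36 CPM. By chromosome, joined desert regions per Mb of desert were fewest on X (7.21) and most on 13 (31.1), followed by chromosomes 10 (27.9), 16 (26.0) and 12 (25.1).

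The regions were unevenly spread over the deserts. Of 2036 unbroken desert stretches 1058 held a counted window, with a median of 5 joined regions, and 179 of them held 1 region only. The 57 deserts with at least 50 regions held 4850 of the 13753 joined regions (35.3%). Each desert is named here by the protein-coding genes on either side of it. The fullest were the immunoglobulin heavy chain locus between Adam6a and Zfp386 (chr12:113643909-115947723, 272 regions) and the T cell receptor alpha and delta locus before Dad1 (chr14:52641357-54153928, 244 regions), whose segments are rearranged in B and T cells. Next came the stretch beside Tox, a high-mobility-group factor of T cell development (chr4:7091558-8139040, 159 regions), and that beside Satb1, a chromatin organiser needed for early Treg enhancers (chr17:51933291-52502708, 131 regions). They were followed by the deserts between Eea1 and the anti-proliferative gene Btg1 (chr10:96045519-96517000, 119 regions) and between Prl5a1 and the SOX-family factor gene Sox4 (chr13:28242485-28853698, 115 regions). Per Mb, these deserts held 118 (Adam6a-Zfp386), 161 (Gm36448-Dad1), 152 (Tox-Car8), 230 (Satb1-Kcnh8), 252 (Eea1-Btg1) and 188 (Prl5a1-Sox4) joined regions, against 17.04 over all deserts.

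**Figure D2:**
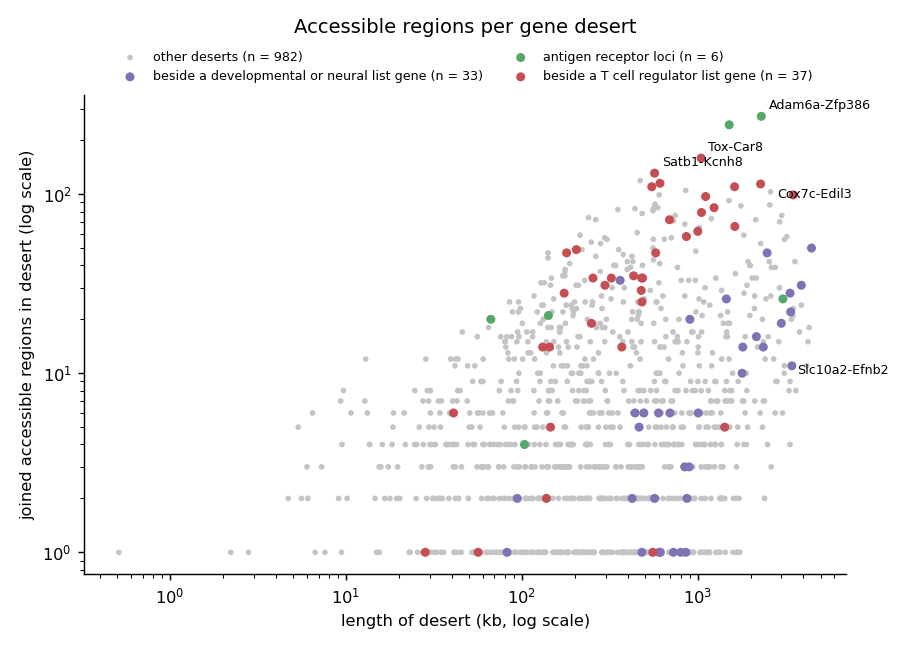
Joined accessible regions in each of the 1058 deserts with a counted window against its length in kb (both log axes), with antigen receptor loci and deserts beside genes of the T cell and the developmental list marked by colour. The antigen receptor deserts and those beside Tox, Satb1, Btg1 and Sox4 lie at the top, with 115 to 272 regions, while long deserts beside developmental genes lie low.

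Deserts beside genes that regulate T cells were denser than deserts beside developmental and neural genes. Of a list of 50 T cell regulators, 30 flanked a desert with a counted window, and the 39 deserts beside genes of the list (26.4 Mb) held 1865 joined regions, or 70.6 per Mb. Of 40 developmental and neural genes 25 flanked such a desert, and the 57 deserts beside genes of that list (55.5 Mb) held 397 regions, or 7.16 per Mb. The 39 and the 57 include deserts without a counted window. Median levels were 1.40 CPM for the 3075 windows beside the T cell list and 0.895 CPM for the 739 beside the developmental list, and 92 and 11 of these windows exceeded 10 CPM, against 449 of all desert windows. Among the 30 deserts with most regions, 10 flanked a gene of the T cell list and 0 a gene of the developmental list, while among all 1058 the numbers were 37 and 33. These densities are a description of the lists, which were drawn up with earlier results known.

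Named windows beside the T cell list showed the upper end of desert accessibility. Beside a gene means here that the gene flanks the desert, and the start of another gene can be nearer. The highest was at the start of the lncRNA gene Dubr, in the desert next to Cblb, which encodes a ubiquitin ligase that restrains T cell activation (chr16:50732660-50732861, mean 43.4 CPM, from 30.0 to 53.3 CPM over the 14 mice). It lay 1299 kb from the Cblb start and 142 kb from that of Ccdc54. It was followed by the window beside the repressor gene Zeb1 (39.9 CPM), where the Arhgap12 start was nearer. Next was that beside Satb1 (chr17:52162634-52162835, 29.9 CPM, inside the lncRNA gene Gm19585, 329 kb from the Satb1 start). Beside Myc, a driver of cell growth, the top window lay inside the lncRNA gene Pvt1 (chr15:62169697-62169898, 26.7 CPM, 184 kb from the Myc start). The top window beside the ETS factor gene Ets1 had 26.0 CPM (chr9:32928708-32928909, 293 kb from its start) and the one beside Sox4 had 24.3 CPM (chr13:28551672-28551873, 402 kb). The window beside Bach2, a repressor of effector programmes, reached 23.0 CPM (chr4:32149215-32149416), as against 22.8 CPM beside Tox (chr4:7455218-7455419). The former lay 268 kb from the Bach2 start and 185 kb from that of Map3k7. Beside Ptprc, which encodes the phosphatase CD45, the top window sat at the start of the non-coding gene Gm4258 (chr1:137898425-137898626, 22.5 CPM). Beside Foxo1, a factor of naive T cell homeostasis, the top window had 22.2 CPM (chr3:52643900-52644101), beside Gata3 20.4 CPM (chr2:9594118-9594319) and beside the costimulatory receptor gene Icos 19.9 CPM (chr1:61135680-61135881). The other 18 genes of the list had top windows between 1.14 and 19.0 CPM.

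The highest desert windows of all were near non-coding starts or lay inside no annotated gene. The start of 4932412D23Rik, whose sequence is printed above, held the first (chr16:42875584-42875785), with a mean of 78.9 CPM and 70.5 to 92.6 CPM over the mice, which placed it 46th among all windows. The neighbouring window at chr16:42875378-42875579 had 72.7 CPM (59.4 to 80.2), and both lie in the desert before Zbtb20, a zinc finger transcription factor gene. The start of the lncRNA gene Gm26901 had 64.4 CPM (chr1:7397870-7398071, 53.0 to 75.0), and a further window of the same gene 46.0 CPM (chr1:7397566-7397767, 38.7 to 53.9). With no annotated gene at the site, the window at chr10:96371026-96371227 in the Eea1-Btg1 desert had 57.2 CPM (46.1 to 67.8). Those at chr16:84583887-84584088 between Ncam2 and Mrpl39 (51.3 CPM, 42.3 to 59.0) and beside Setbp1 (50.4 CPM, 41.3 to 71.4) were also among the 8 highest. None of the 8 passed in any comparison of the genotypes in edgeR.

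After 3 days of 5-ph-IAA no single desert window passed the test, while the fold changes of the windows lay above 0 more often than those of other windows. No desert window of 22409 passed at day 3 in edgeR's quasi-likelihood test (Benjamini-Hochberg adjusted p under 0.05; smallest adjusted p = 0.229), nor in DESeq2, as against 0.0% of all 235515 windows tested in edgeR. At an unadjusted p under 0.05 there were 2354 desert windows (10.5%), of which 2094 were higher and 260 lower in R26TIR1(F74G) mice, against 7.55% of all windows. The median log2 fold change of R26TIR1(F74G) over R26WT was 0.17 over the desert windows and 0.01 over all windows, and 69.0% of desert windows against 51.2% of all windows had a value above 0. By distance from the nearest start the median was 0.11 at 100 to 200 kb, 0.18 at 200 to 500 kb and 0.31 beyond 500 kb. In windows just outside the rule, at 90 to 100 kb, it was 0.10, and just inside, at 100 to 110 kb, 0.09.

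The shift was larger in weaker windows. Below 1 CPM the day 3 median log2 fold change was 0.31 in gene deserts, 0.12 in other intergenic windows and 0.11 in gene bodies. At 1 to 2 CPM it was 0.19 against 0.07 in other intergenic windows, at 2 to 5 CPM 0.07 against -0.01, and at 5 CPM or more -0.02 against -0.08. These values depend on how libraries are scaled. When TMM factors were taken from the desert windows alone, a setting added after the data were seen, the day 3 median was 0.01 for desert windows and -0.15 for all windows. The sign of the desert shift thus holds only relative to the other windows. Leaving out each mouse in turn gave desert medians from 0.11 (without R26TIR1(F74G) replicate 3) to 0.21 (without R26TIR1(F74G) replicate 2).

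The share of each library's counts that fell in gene deserts showed the same difference mouse by mouse. At day 3 it was 4.67%, 4.58%, 4.41% and 4.24% in R26WT replicates 1 to 4, and 4.96%, 4.59%, 5.53% and 4.96% in R26TIR1(F74G) replicates 1 to 4. The R26TIR1(F74G) shares were the higher ones, except that replicate 2 lay within the R26WT range. At day 7 the R26WT mice had 4.43%, 4.53% and 5.11%, as against 4.50%, 4.67% and 4.41% for R26TIR1(F74G). Here the groups overlapped, and the highest share belonged to R26WT replicate 3, one of the 2 shallow libraries. Group means were 4.47% ± 0.19 (SD, n = 4) and 5.01% ± 0.39 (n = 4) at day 3, and 4.69% ± 0.37 (n = 3) and 4.53% ± 0.13 (n = 3) at day 7. Windows beyond 500 kb took 0.482% to 0.632% of counts in the day 3 R26WT mice and 0.603% to 0.808% in the day 3 R26TIR1(F74G) mice, and at day 7 0.539% to 0.715% and 0.516% to 0.590%. Shares of promoter windows, 47.5% to 52.0% over the 14 libraries, moved as well, and the part that library quality or depth had in the shift was not tested. A change in accessibility per cell and a change in the mix of cells cannot be told apart in bulk samples.

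**Figure D3:**
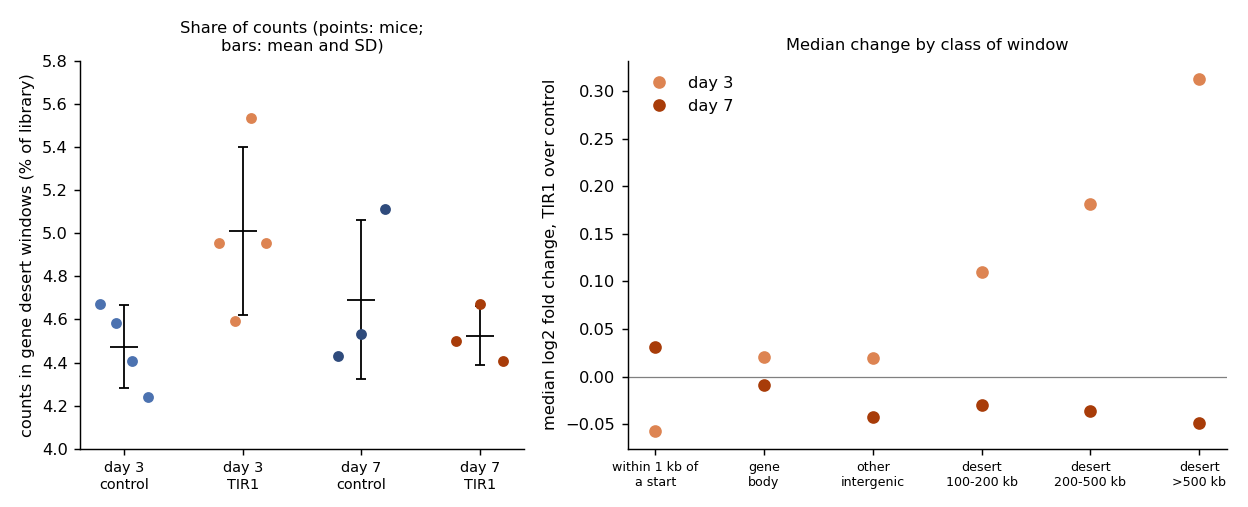
Left, percent of counts in desert windows in each of the 14 libraries by day and genotype (points) with the mean and SD of each group (bars) on an axis that starts above 0, control being R26WT and TIR1 being R26TIR1(F74G). Right, median log2 fold change of R26TIR1(F74G) over R26WT by class of window: in deserts the day 3 medians go from 0.11 at 100 to 200 kb to 0.31 beyond 500 kb, and the day 7 medians are between -0.05 and -0.03.

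By day 7 no such shift was seen. The median log2 fold change was -0.03 in desert windows and -0.01 in all windows, 45.9% of desert windows had a value above 0 against 49.0% of all windows, and the distance classes had medians of -0.03, -0.04 and -0.05. Without R26WT replicate 3 the desert median was 0.00, and leave-outs ranged down to -0.06. In the test of the difference between the days, the day by genotype interaction, 0 of 23348 desert windows passed in edgeR (smallest adjusted p = 0.335) and 0 in DESeq2, as against 0.0% of all windows in edgeR. At an unadjusted p under 0.05 there were 2092 desert windows (8.96%), 259 with a higher and 1833 with a lower genotype difference at day 7, against 6.32% of all windows. The median interaction was -0.20 on the log2 scale in desert windows and -0.01 in all windows.

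At day 7, 2 desert sites passed the test. In edgeR's quasi-likelihood test 3 of 22339 desert windows were called, 2 of them overlapping, against 0.00463% of all 237811 windows. DESeq2 called 0. At an unadjusted p under 0.05 edgeR gave 1465 desert windows (6.56%), against 5.95% of all windows.

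The first was chr6:31804383-31804584, inside no annotated gene and 240546 bp from the start of Podxl, which encodes the sialomucin podocalyxin. Its levels at day 7 were 3.04, 8.08 and 7.50 CPM in R26WT mice and 0.856, 2.80 and 1.42 CPM in R26TIR1(F74G) mice. All R26TIR1(F74G) mice were below all R26WT mice, although R26WT replicate 1 lay close to R26TIR1(F74G) replicate 2. The log2 fold change was -1.86 (SE 0.29, adjusted p = 0.0194, edgeR). At day 3 the levels were 5.28, 5.16, 6.21 and 6.14 CPM in R26WT mice and 6.83, 4.45, 4.99 and 1.05 CPM in R26TIR1(F74G) mice, where replicate 4 alone was low (log2 fold change -0.48, adjusted p = 0.639, edgeR). The call was lost without day 7 R26WT replicate 2 (adjusted p = 0.134), R26TIR1(F74G) replicate 1 (0.0793) or replicate 3 (0.488), all by edgeR. Nearby windows that begin at chr6:31799512 and chr6:31803258 had day 7 values of -1.59 and -1.94 and did not pass (adjusted p = 0.0581 and 0.119, edgeR).

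The other regions of the Podxl-1700012A03Rik desert had values in the same direction, but most lay close to the called window. Its 6 joined regions all had a day 7 log2 fold change below 0. Their summed level was 14.6, 33.5 and 39.8 CPM in day 7 R26WT mice and 7.72, 16.9 and 7.90 CPM in day 7 R26TIR1(F74G) mice, with the lowest R26WT mouse below the highest R26TIR1(F74G) mouse. At day 3 it was 25.7, 25.7, 24.0 and 24.1 CPM in R26WT mice and 24.3, 24.2, 23.9 and 10.6 CPM in R26TIR1(F74G) mice, close together apart from R26TIR1(F74G) replicate 4. For the sum the day 7 difference was -1.41 (SE 0.31) and did not pass (adjusted p = 0.443, edgeR).

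The second site rose in R26TIR1(F74G) mice. It lay between Unc5cl and the synaptic adhesion gene Lrfn2, 192689 bp from the Unc5cl start, inside no annotated gene (chr17:48647490-48647691). Day 7 levels were 3.04, 4.59 and 1.80 CPM in R26WT mice and 7.59, 7.03 and 7.34 CPM in R26TIR1(F74G) mice, which did not overlap. The difference was 1.10 on the log2 scale (SE 0.20, adjusted p = 0.0497, edgeR), and the overlapping window chr17:48647553-48647754, which shares reads with it, gave 1.13 (SE 0.20, adjusted p = 0.0498, edgeR). At day 3 the levels were 3.98, 6.42, 4.99 and 8.91 CPM in R26WT mice and 4.86, 6.06, 7.01 and 5.07 CPM in R26TIR1(F74G) mice, with no separation (log2 fold change -0.07). The day 7 R26TIR1(F74G) mice were thus within the range of the day 3 R26WT mice, and the day 7 R26WT mice lower (R26WT day 7 over day 3, -0.86, adjusted p = 0.486, edgeR). Leaving out any of the 6 day 7 mice but R26WT replicate 2 ended the call, with adjusted p of up to 0.542 in edgeR.

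**Figure D4:**
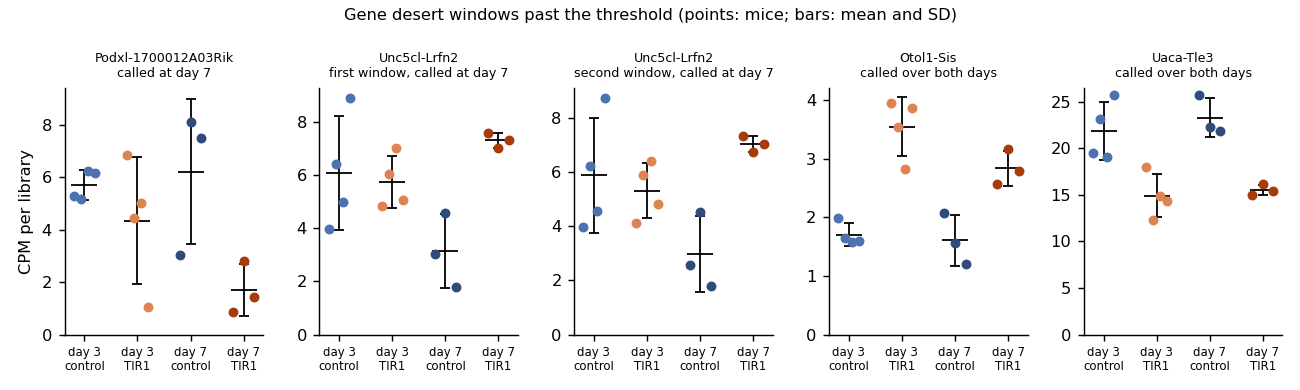
CPM in each of the 14 mice (points), with the mean and SD of each group (bars), at the desert windows that passed the edgeR test at day 7 (Podxl-1700012A03Rik and the 2 overlapping windows of Unc5cl-Lrfn2) or over both days (Otol1-Sis and Uaca-Tle3). R26TIR1(F74G) mice (TIR1) lie below all R26WT mice (control) at Uaca-Tle3 and above them at Otol1-Sis on both days, while the other windows separate at day 7 only.

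With both days fitted together, 1 desert window was lower and 1 higher in R26TIR1(F74G) mice. These were 2 of 23348 desert windows, against 0.0112% of all 240778. DESeq2 called 10, of 155 over all windows, although it gave 22567 desert windows no adjusted p. At an unadjusted p under 0.05 edgeR gave 1719 desert windows (7.36%), against 6.73% of all windows. In 30 desert windows the 7 R26TIR1(F74G) and 7 R26WT mice did not overlap, 18 higher and 12 lower in R26TIR1(F74G), which is 0.128% of desert windows against 0.116% of all.

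The lower window lay between Uaca and Tle3, a Groucho-family corepressor gene, inside the lncRNA gene Gm51680 and 197235 bp from the Uaca start (chr9:60991577-60991778). Its levels in R26WT mice were 19.5, 23.2, 19.1 and 25.7 CPM at day 3 and 25.8, 22.3 and 21.9 CPM at day 7. In R26TIR1(F74G) mice they were 17.98, 12.3, 14.9 and 14.4 CPM at day 3 and 15.0, 16.2 and 15.4 CPM at day 7. Every R26TIR1(F74G) mouse was below every R26WT mouse, and the means were 15.2 ± 1.71 CPM (SD, n = 7) and 22.5 ± 2.66 CPM (n = 7). The log2 fold change was -0.59 (SE 0.09, adjusted p = 0.00596, edgeR). It remained called when any 1 of the 14 mice was left out, and with TMM over desert windows it was -0.66 with an adjusted p of 0.0597 in edgeR. Of the 46 joined regions in this desert 2 more did not overlap between genotypes, beginning at chr9:60999230 (log2 fold change -0.43, adjusted p = 0.0873, mean 17.7 CPM) and chr9:61054444 (-0.38, adjusted p = 0.554), and neither passed in edgeR.

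The higher window was remote and weak. It lay between Otol1 and Sis, the gene of an intestinal disaccharidase, 1403679 bp from the Sis start and inside no annotated gene (chr3:71564084-71564285). R26WT levels were 1.99, 1.65, 1.57 and 1.59 CPM at day 3 and 2.07, 1.57 and 1.20 CPM at day 7. R26TIR1(F74G) levels were 3.96, 3.54, 2.83 and 3.86 CPM at day 3 and 2.57, 3.16 and 2.78 CPM at day 7, again with no overlap. The means were 3.24 ± 0.551 CPM (SD, n = 7) and 1.66 ± 0.291 CPM (n = 7), a log2 fold change of 0.92 (SE 0.17, adjusted p = 0.0269, edgeR). The overlapping window that begins at chr3:71564011 had 0.76 (adjusted p = 0.0961, edgeR), and 7 of the 14 leave-outs ended the call (adjusted p of up to 0.105, edgeR). With TMM over desert windows it had 0.84 and did not pass (adjusted p = 0.0999, edgeR). It also had the smallest p of all desert windows at day 3, with 1.05 (SE 0.23), which did not pass.

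The other windows with the smallest p at day 3 were low or varied within groups. The second, between Gm44812 and Mctp2 (chr7:71379149-71379350, inside the non-coding genes Gm29328 and Gm36260), had 0.519, 0.860, 0.615 and 0.590 CPM in R26WT and 2.16, 1.72, 2.38 and 1.45 CPM in R26TIR1(F74G), which is a difference of 1.53 on the log2 scale (adjusted p = 0.233, edgeR). The next, 220 bp from the start of the non-coding gene Gm35612 on the X chromosome (chrX:50537509-50537710), had 2.34, 2.84, 3.82 and 0.413 CPM in R26WT mice and 1.62, 0.376, 0.298 and 0.885 CPM in R26TIR1(F74G) mice. Its log2 fold change was -1.83 (adjusted p = 0.234, edgeR), but at day 7 both genotypes held mice with high and with low levels, 5.04, 0.174 and 0.300 CPM in R26WT and 3.10, 4.29 and 0.304 CPM in R26TIR1(F74G).

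No window next to T cell regulators passed between the genotypes in the main edgeR fit. Of the windows in deserts beside the T cell list 0 of 3025 passed at day 7, 0 of 2984 at day 3 and 0 of 3075 over both days in edgeR, with unadjusted p under 0.05 in 5.92%, 6.30% and 6.41%, against 5.95%, 7.55% and 6.73% of all windows. Median log2 fold changes were -0.04, 0.08 and 0.02. At the top window of each of the 30 genes the log2 fold change was between -0.95 and 0.30 at day 7, between -0.53 and 0.43 at day 3 and between -0.53 and 0.37 over both days (smallest adjusted p = 0.378, edgeR). Beside the developmental list 0 windows passed in any of these comparisons, and the medians were -0.03 at day 7, 0.31 at day 3 and 0.15 over both days, with unadjusted p under 0.05 in 6.43%, 15.9% and 6.63%. At day 3 the 15.9% beside the developmental list and the 6.30% beside the T cell list stood against 10.5% of all desert windows. Windows beside the developmental list were weak (median 0.895 CPM). All desert windows below 1 CPM had a day 3 median of 0.31 as well, with unadjusted p under 0.05 in 11.96%. DESeq2 called 0 desert windows of either kind at day 3 and day 7. The 10 it called over both days are not placed by list here. In other edgeR settings over both days, windows beside the T cell list did pass. A window beside Id2 passed with DESeq2's size factors, total counts or a mean count of at least 50. It also passed without day 3 R26WT replicate 3, as did a window beside Foxo1, and without day 3 R26TIR1(F74G) replicate 2. With no filter or TMM over deserts neither passed.

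Adding the counts of a whole desert, with 1 window taken from each joined region, gave values of greater depth. At day 3, 14 of 1052 desert sums passed in edgeR, all higher in R26TIR1(F74G), against 0.28% of all 17138 sums, which included sums over the windows nearest each protein-coding gene. Of the 48 called over all sums, deserts included, 42 were higher. At an unadjusted p under 0.05 there were 387 desert sums (36.8%), 383 higher and 4 lower, against 18.3% of all sums. The median log2 fold change was 0.26 over the deserts and 0.01 over all sums, and 87.4% of the deserts against 51.7% of all sums had a value above 0. In the 14 deserts it was between 0.29 and 0.66. Besides those described next, they included the deserts between Slc24a2 and Mllt3, Sel1l and Gm40892, Etv1 and Arl4a, Alcam and Zpld1, Ttll7 and Adgrl2, Adgrl2 and Adgrl4, Marcks and Rfpl4b, and Cbln2 and Socs6. The number called ranged from 0 to 128 when 1 mouse was left out, with 0 without R26TIR1(F74G) replicate 3, R26WT replicate 3 or R26WT replicate 4, 3 without R26WT replicate 1 or R26TIR1(F74G) replicate 4, 51 without R26TIR1(F74G) replicate 1 and 128 without R26TIR1(F74G) replicate 2. With TMM over the desert sums 44 passed, of which 31 were higher and 3 were among the 14.

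The 3 with the greatest change were Tmem161b-Ccnh, Slc10a2-Efnb2 and Gbe1-Robo1. The Tmem161b-Ccnh desert, beside a gene of a cyclin of the CDK-activating kinase, had summed levels of 20.8, 21.3, 20.4 and 18.3 CPM in day 3 R26WT mice and 26.8, 28.8, 39.6 and 31.1 CPM in day 3 R26TIR1(F74G) mice. These did not overlap, and the log2 fold change over its 16 joined regions was 0.66 (SE 0.12, adjusted p = 0.0253, edgeR). At day 7 it had 16.8, 23.8 and 31.8 CPM in R26WT and 24.1, 22.2 and 20.5 CPM in R26TIR1(F74G) mice, with R26WT mice above and below the others (-0.07, adjusted p = 0.947, edgeR).

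Slc10a2-Efnb2, between the ileal bile acid transporter gene and an ephrin gene, had 18.2, 17.1, 18.2 and 17.7 CPM in day 3 R26WT mice and 28.6, 25.3, 30.1 and 27.2 CPM in day 3 R26TIR1(F74G) mice. Spread within each group was small beside the gap, and the log2 fold change over 9 joined regions was 0.64 (SE 0.11, adjusted p = 0.0200, edgeR). Day 7 levels were 12.5, 19.3 and 22.7 CPM against 17.2, 21.7 and 19.8 CPM, which overlapped (0.14, adjusted p = 0.871, edgeR). Gbe1-Robo1, beside an axon guidance receptor gene, had 27.8, 28.2, 22.6 and 21.3 CPM against 42.0, 31.0, 47.0 and 33.0 CPM at day 3 over 26 joined regions (0.61, SE 0.13, adjusted p = 0.0402, edgeR). At day 7 it had 24.1, 25.1 and 36.3 CPM against 26.0, 26.4 and 20.1 CPM (-0.20, adjusted p = 0.775, edgeR). In all 3 deserts the highest day 7 R26WT value came from replicate 3, the shallow library.

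Over both days 2 of 1058 desert sums passed in edgeR, both higher in R26TIR1(F74G), against 0.0699% of all sums, and DESeq2 called 7. Of the 12 called in edgeR over all sums, deserts included, 8 were higher. Unadjusted p was under 0.05 for 170 (16.1%), against 13.8% of all.

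Of the 2 that passed, the Csmd3-Trps1 desert spans 1762 kb next to the GATA-type repressor gene Trps1 (chr15:48892559-50654756). It had 162, 177, 169 and 147 CPM in R26WT and 190, 196, 255 and 220 CPM in R26TIR1(F74G) mice at day 3. Day 7 levels were 159, 161 and 174 CPM in R26WT and 197, 197 and 167 CPM in R26TIR1(F74G) mice, so that R26TIR1(F74G) replicate 3 fell among the R26WT mice. The sum differed by 0.31 (SE 0.06, adjusted p = 0.0498, edgeR). Of its 86 joined regions 77 were above 0, beside 62.7% of all desert windows over both days. As the desert was named because its sum passed, this count describes the same values again. The call held in 3 of the 14 leave-outs, without day 3 R26TIR1(F74G) replicate 1, day 7 R26WT replicate 3 or day 7 R26TIR1(F74G) replicate 3, and was lost without any other mouse (adjusted p of up to 0.154, edgeR). It was also lost with all windows summed (adjusted p = 0.127, edgeR) and with total counts (0.0675). With TMM over the desert sums neither of the deserts passed, and Csmd3-Trps1 had 0.20 (adjusted p = 0.394, edgeR).

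**Figure D5:**
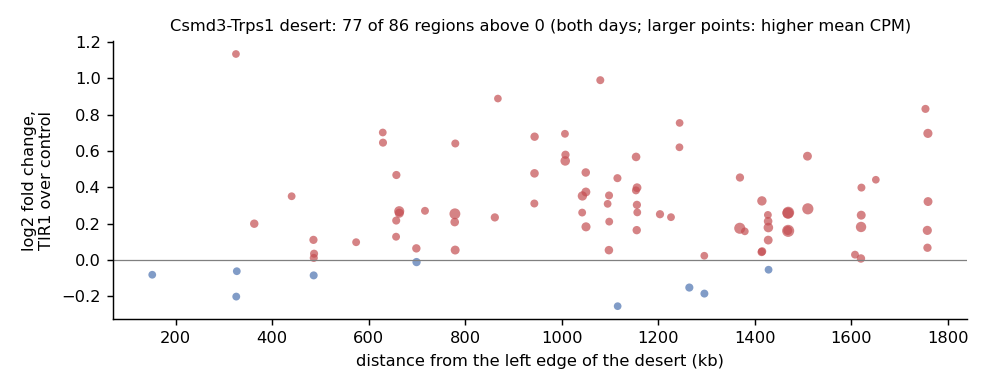
Log2 fold change of R26TIR1(F74G) over R26WT over both days for each joined region (points, larger at higher mean CPM) of the Csmd3-Trps1 desert, against its distance in kb from the left edge of the desert. Of its 86 regions 77 lie above 0, beside 62.7% of all desert windows, and the desert was chosen because its sum passed.

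At day 7 alone 0 of 1042 desert sums passed in edgeR, against 0.0% of all 17125 sums, and 0 in DESeq2. Unadjusted p was under 0.05 for 74 (7.10%), against 7.24% of all, and the median was -0.06 against 0.00. The smallest p belonged to the desert between Cdh18 and Basp1, with 73.2, 78.5 and 81.5 CPM in R26WT and 92.3, 103 and 102 CPM in R26TIR1(F74G) mice, a gap that did not pass (0.36, SE 0.07, adjusted p = 0.409, edgeR). None of the 6 fullest deserts passed at day 3, at day 7 or over both days. Closest to the threshold were day 3 values, where the immunoglobulin heavy chain desert Adam6a-Zfp386 had 0.21 (adjusted p = 0.0894, edgeR) and the Tox-Car8 desert 0.22 (adjusted p = 0.0554, edgeR).

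Between day 7 and day 3 within a genotype few differences were seen at single desert windows. In R26WT mice 0 of 21074 passed in edgeR (smallest adjusted p = 0.175) and 0 in DESeq2, against 0.003% of all windows in edgeR, and 1105 (5.24%) had an unadjusted p under 0.05, against 5.25% of all. The smallest p was at a site between Wdr11 and the growth factor receptor gene Fgfr2 (chr7:129771899-129772100), with 2.68, 2.71, 3.14 and 2.18 CPM at day 3 and 0.840, 1.28 and 0.600 CPM at day 7 (log2 fold change -1.44). A window that overlaps it (chr7:129771936-129772137) gave -1.38, and 1 between Nxph1 and Ndufa4 (chr6:10690646-10690847), which had between 0.952 and 4.50 CPM at day 3 and between 3.00 and 8.20 CPM at day 7 with overlap of the groups, gave 1.298.

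In R26TIR1(F74G) mice 0 of 23107 passed in edgeR (smallest adjusted p = 0.0776) and 0 in DESeq2, against 0.0% of all windows in edgeR. Unadjusted p was under 0.05 for 2537 (10.98%), 233 higher and 2304 lower at day 7, against 6.96% of all windows. The median log2 fold change from day 3 to day 7 was -0.15 in desert windows of R26TIR1(F74G) mice, against -0.01 over all windows, and 0.05 in those of R26WT mice. Without day 3 R26TIR1(F74G) replicate 2, the mouse with the lowest desert share of its group, 140 desert windows passed, of 364 over all windows. The 3 with the smallest p shared the adjusted p of 0.0776. Beside Mrps30 (chr13:118269187-118269388) levels were 7.37, 0.751, 8.50 and 3.86 CPM at day 3 and 1.44, 0.894 and 0.607 CPM at day 7 (-2.27), and beside Dcaf12l2 (chrX:44130895-44131096) 2.88, 1.23, 2.46 and 1.53 CPM and 0.535, 0.119 and 0.455 CPM (-2.31). Between the phosphatase gene Dusp6 and Csl (chr10:99599897-99600098) they were 3.78, 2.84, 3.06 and 3.38 CPM at day 3 and 6.42, 6.56 and 6.07 CPM at day 7 (1.00), with narrow groups that did not overlap. R26WT mice at this site had 5.45, 4.50, 3.62 and 3.07 CPM at day 3 and 6.59, 4.77 and 4.20 CPM at day 7, which did overlap.

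For the interaction the 3 windows with the smallest p had low counts. Between Ripk2 and Mmp16 (chr4:17445253-17445454) it was -2.97, with R26TIR1(F74G) mice at 1.29 to 2.53 CPM at day 3 and 0.304 to 0.656 CPM at day 7. In the Prl5a1-Sox4 desert (chr13:28424965-28425166) it was -2.34, with 1.08 to 1.94 CPM in R26TIR1(F74G) mice at day 3 and 0.536 to 0.759 CPM at day 7, while R26WT mice went from 0.433 to 0.992 CPM to between 1.63 and 1.94 CPM. Between Gm4737 and Nectin3 (chr16:46306084-46306285) it was -4.03, with mice of both genotypes between 0.0506 and 2.52 CPM. None of the 3 passed (adjusted p = 0.335, 0.406 and 0.476, edgeR).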

How the data were processed

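Bulk ATAC-seq of sorted Treg cells from 14 mice was analysed, in 4 groups by genotype and day taken from the labels. The authors aligned reads to mm10 with Bowtie2, called peaks with MACS2 at a p cutoff of 0.05, kept peaks by IDR at 0.2, merged them into 1 atlas and counted reads in windows at peak summits with featureCounts. Names of the tools come from the submitters' processing notes and the study's methods. The deposited table holds raw counts per window, not normalized, and all 14 of its columns were matched to samples by name. Counts are of reads without molecular identifiers, so errors from counting alone are a lower limit.

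Protein-coding genes (21887) and their starts (26104) came from RefSeq on GRCm38.p6. Start sites for 17492 genes were RefSeq starts, 3949 genes took their strand from a gene of the same symbol, and 446 genes of unknown strand had both ends used as starts. Windows that overlapped were joined into regions, and a desert sum added the most accessible window of each region. Levels are CPM with TMM factors over the 14 libraries.

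Genotype and day differences were tested with edgeR 4.0.16 (limma 3.58.1, R 4.3.3) by the quasi-likelihood F test on every window that averaged 10 counts or more in the libraries fitted. P-values were adjusted by Benjamini-Hochberg over all windows or sums, with a threshold of 0.05, and SE was the log2 fold change over the root of F. The fit over both days had day and genotype as terms. DESeq2 1.42.0, other scalings, filters, distances and left-out mice were alternatives. So were a replicate block and a term for the start of the mouse names (10 libraries with 1 prefix and 4 with the other). The tests were also run on simulated data, in which every window had the same spread between libraries beyond counting error. That setting is simpler than these data, so it does not show how the tests behave here. Tables and figures used Python 3.11.15, numpy 2.4.6, pandas 2.3.3 and matplotlib 3.10.9. Members and gene lists were chosen with earlier results of these data known. Named windows were those past the threshold (or the 3 with the smallest p where none passed), the 8 with the highest CPM, the top window beside each gene of the T cell list and the 3 farthest from a start. Named deserts were the 6 with most regions and those past the threshold, at most 3 for a comparison by size of change, or the 3 with the smallest p. The study describes its accessibility data by resting and activated state, which the labels of these samples do not give. Some deserts and windows that the rule would name are not reported here.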

Additional observations from a re-analysis of the deposited data

Results flagged for a closer look

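In 9 of 106 groups of 4 mice tested (8.49%), 1 mouse stood apart from the other 3 by Dixon's criterion, which chance alone does in about 1 in 20 groups, and no explanation was tested. In day 3 R26TIR1(F74G) replicate 1, the shallowest library, the window beside Setbp1 had 71.4 CPM against 45.7 to 48.2 CPM in the other 3 mice, that beside Gata3 (chr2:9594118-9594319) had 31.5 CPM against 19.0 to 19.6 CPM, and the remote window chr14:91245549-91245750 had 2.16 CPM against 0.644 to 0.885 CPM. In day 3 R26TIR1(F74G) replicate 2, chr16:46306084-46306285 was at 2.52 CPM against 0.322 to 0.671 CPM, and the high window of the Eea1-Btg1 desert (chr10:96371026-96371227) was at 46.1 CPM against 54.5 to 55.2 CPM. Day 3 R26TIR1(F74G) replicate 4 had a Podxl-1700012A03Rik desert sum of 10.6 CPM against 23.9 to 24.3 CPM, a low value like those of the day 7 R26TIR1(F74G) mice. Among day 3 R26WT mice, replicate 2 had 4.50 CPM at chr6:10690646-10690847 against 0.952 to 1.502 CPM and an Eea1-Btg1 desert sum of 639 CPM against 584 to 585 CPM, and replicate 1 had 1.04 CPM at chr14:91245081-91245282 against 0.295 to 0.397 CPM. No desert window passed the test of a difference between the days.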

How the results depend on the processing

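Of 182 alternative values of counts and shares 118 kept their size and direction, 63 counts changed by more than 1.5 times and 1 share turned sign. Of 357 alternative log2 fold changes 286 kept their side of the threshold, 60 lost it, 11 passed it and none turned sign, and all 23 alternative levels stayed within the spread between mice. Where a cause is not plain from the setting, it was not tested.

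At day 7 the 3 called windows became 1 at a distance of 200 kb, 0 in DESeq2, 5 at a mean count of at least 50, 1 with no filter, 13 with the replicate block and 1 with TMM over deserts (0 to 6 with 1 mouse left out, 0 without R26TIR1(F74G) replicate 3). At day 3 the 0 became 2 with TMM over deserts (0 to 5). Over both days the 2 became 1 at 200 kb, 1 outside genes of any kind, 10 in DESeq2, 5 with total counts, 5 at a mean count of at least 50 and 4 with the replicate block (1 to 8). With TMM over deserts it stayed 2, with 0 windows shared. For the interaction the leave-outs gave 0 to 5, for R26WT by day 0 to 7 (7 without day 7 replicate 1) and for R26TIR1(F74G) by day 0 to 140.

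Of desert sums, the 0 at day 7 became 1 with the replicate block and 1 with TMM over deserts (0 to 1). The 14 at day 3 became 61 in DESeq2, 1 with all windows summed, 103 with the replicate block and 44 with TMM over deserts (0 to 128). The 2 over both days became 7 in DESeq2, 1 with all windows summed, 1 with total counts and 0 with TMM over deserts (1 to 5). The day 3 difference in the share of counts in deserts, 0.53 percentage points, was 0.36 to 0.67 with 1 mouse left out, and the day 7 difference of -0.17 was -0.297 to 0.0435, with 0.0435 without R26WT replicate 3. The replicate numbers were not taken to pair the mice. The correlation of deviations from the group means was -0.08 to 0.07 for same-numbered mice over 66750 windows, over 0.1 in 0 of 7 pairs. Over desert windows it was -0.0329 to 0.161, over 0.1 in 2 of 7 pairs. Over all windows 2 of 7 R26TIR1(F74G) mice correlated best with their own number. Over desert windows this was so for day 3 replicates 1 (0.0715) and 4 (0.114) and day 7 replicates 1 (0.161) and 3 (0.0345). It was not so for day 3 replicates 2 and 3 and day 7 replicate 2. These values do not settle whether the numbers pair the mice, and the replicate block is given only here. At these depths most desert windows had mean counts near the minimum of 10, and small changes at them were not detectable.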
